A study of Homo sapiens with 38 samples.

Results

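The genes examined here are 50 genes of the machinery that licenses replication origins and copies DNA. They were taken from a list of names, which was chosen with earlier results of these data known. The list holds 14 origin licensing genes (MCM2 to MCM7, ORC1 to ORC6, CDC6 and CDT1), 1 licensing inhibitor (GMNN) and 8 genes of origin firing and the active helicase. It further holds 1 MCM paralog of meiosis and repair (MCM8), 9 genes of the polymerases and primase, 11 of the clamp, its loader, the single-strand binding protein RPA and the lagging strand, 4 of nucleotide supply and 2 of maintenance methylation. All 50 were listed in every count file, among 50652 gene symbols in the BE2C files and 50778 in the palbociclib files, and all 50 had enough reads to be tested in every experiment.

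Total RNA had been sequenced from established human neuroblastoma cell lines in 3 experiments. BE2C cells received GSK-J4, an inhibitor of the histone H3 lysine 27 demethylases KDM6A and KDM6B, at 2.5 µM for 0 h, 24 h or 48 h, with 2 libraries at each time. BE2C cells were also transfected for 72 h with a control siRNA (siCtrl, 2 libraries) or with 1 of 3 siRNAs against KDM6B, named N1, N2 and N33 (1 library each). Palbociclib, an inhibitor of the kinases CDK4 and CDK6, was given for 72 h to CHLA15 and CHLA20 cells at 300 nM and to NB1643 and NB1691 cells at 3 µM, beside controls labelled as untreated, with 2 libraries for each line and condition. No source used here says that libraries of a group came from separate cultures, so every p measures the spread between these libraries, which may be technical. The 0 h libraries were the only control of the GSK-J4 series, so the drug and the time in culture cannot be told apart.

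Before S phase, the origin recognition complex (ORC) together with CDC6 and CDT1 loads the ring-shaped MCM2 to MCM7 helicase on DNA, which licenses an origin, and geminin (GMNN) binds CDT1 to prevent a repeat. In S phase the kinase CDC7 with its partner DBF4, MCM10, CDC45 and the GINS complex turn the loaded ring into the active CMG helicase, and the polymerases α, δ and ε, held by the PCNA clamp, copy the strands from deoxynucleotides that ribonucleotide reductase, thymidylate synthase and thymidine kinase supply. Many of these genes are known targets of E2F transcription factors, which the retinoblastoma protein restrains until CDK4 or CDK6 phosphorylates it.

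A search of the promoters for the E2F motif shows how widely this letter pattern was shared among the genes. A window of 250 bases before to 50 bases after the start site was available from RefSeq (build GRCh38.p14) for 44 of the 50 genes, the others being MCM4, MCM5, GINS4, POLD3, RPA2 and RPA3. The motif was searched on both strands as TTTCCCGC, TTTCGCGC, TTTGCCGC or TTTGGCGC, and matches could overlap each other. At least 1 match was present for 23 of the 44 genes (52.3%), against 3.99% of all 27305 genes with a window and 6.01% of the 12623 of them tested in the palbociclib experiment. Some genes had more than 1 window (MCM7 had 3), and a match in any of them counted. The following stretches of 30 bases, read 5′ to 3′ on the strand of the gene, show the match in capitals (a longer capital run where matches on both strands overlap) for genes whose levels are described below.
MCM2, chr3:127598402-127598431, + strand: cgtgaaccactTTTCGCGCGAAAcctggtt
MCM6, chr2:135876511-135876540, - strand: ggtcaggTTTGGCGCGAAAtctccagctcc
MCM7, chr7:100101388-100101417, - strand: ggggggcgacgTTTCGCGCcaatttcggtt
CDC6, chr17:40287875-40287904, + strand: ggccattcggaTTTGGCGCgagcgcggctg
CDT1, chr16:88803743-88803772, + strand: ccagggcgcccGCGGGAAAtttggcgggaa
GMNN, chr6:24775322-24775351, + strand: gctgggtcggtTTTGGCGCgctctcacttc
GINS2, chr16:85688967-85688996, - strand: ctctcgccgtgGCGGGAAAacggcggccgc
POLE2, chr14:49688201-49688230, - strand: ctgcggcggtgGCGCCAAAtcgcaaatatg
PCNA, chr20:5126663-5126692, - strand: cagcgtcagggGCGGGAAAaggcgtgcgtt
TYMS, chr18:657603-657632, + strand: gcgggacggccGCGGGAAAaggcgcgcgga
UHRF1, chr19:4909476-4909505, + strand: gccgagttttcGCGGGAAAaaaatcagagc
ORC3, chr6:87590112-87590141, + strand: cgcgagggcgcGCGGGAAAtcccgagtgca

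The ORC3 window is shown because it holds the same letters as that of CDT1 (GCGGGAAA) and ORC3 was lower in none of the 4 lines given palbociclib. No window of RRM2, TK1, CDC45 or ORC1 held these letters, and all 4 of these genes fell by more than 2 on the log2 scale in NB1643 and NB1691. The 23 genes with a match had a median log2 fold change of -1.67 in NB1643 and the 21 without had -1.27. At 48 h of GSK-J4 the medians were -0.38 and -0.31. RRM2 (chr2:10260825-10351851, + strand), CDC45 (chr22:19466980-19508135, + strand), ORC1 (chr1:52838501-52870095, - strand) and TK1 (chr17:76170172-76183314, - strand) lie on 4 different chromosomes in GRCh37, the build of the counts. Of other motifs, 59.1% of the 44 genes held a CCAAT box (CCAAT), 15.9% an E-box (CACGTG) and 6.82% the cell cycle element CHR (TTTGAA or TTCGAA), against 39.7%, 8.77% and 19.5% of all genes with a window. A match is a description of letters and was not tested as a binding site.

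Several facts of the libraries bear on the values that follow. They held 36186567 to 63433818 counts on genes with GSK-J4, 41227956 to 50776662 in the siRNA experiment and 45457371 to 93011010 with palbociclib, and the lowest count of any of the 50 genes was 100 (ORC1, in NB1691 with palbociclib), so depth did not limit their detection. Levels are in CPM, the deposited counts scaled by TMM to a common library size, a fold change is on the log2 scale with its standard error (SE), and a gene is called lower or higher at an adjusted p under 0.05 in edgeR's quasi-likelihood test. KDM6B was not lower in the libraries labelled siKDM6B, at 8.99, 7.11 and 8.26 CPM against 6.47 and 8.76 CPM in siCtrl. N33 stood apart, with MYCN at 466 CPM against 1596 to 1742 CPM in the other 4 libraries of the siRNA experiment. NB1691 also stood apart, since a list of 6 fibroblast or mesenchymal genes summed to 16457 to 16757 CPM in its controls and 21262 to 22144 CPM with palbociclib, against at most 395 CPM in every other library of the 4 lines. Most of that was COL1A1, and LUM was at 1763 and 1743 CPM in the NB1691 controls and 2111 and 2130 CPM with palbociclib. A list of 10 neuroblastoma identity genes summed to 573 to 638 and 968 to 983 CPM in NB1691, against 4246 to 7627 CPM in the other lines. These lists also moved with palbociclib elsewhere: identity genes went from 5229 to 5462 CPM to 7564 to 7627 CPM in NB1643, from 4246 to 4282 to 5188 to 5266 CPM in CHLA20 and from 4472 to 4695 to 4974 to 5294 CPM in CHLA15. Mesenchymal genes went from 71.2 to 71.9 to 42.9 to 43.03 CPM in NB1643, from 369.5 to 395 to 283 to 287 CPM in CHLA20 and from 360.2 to 378 to 255 to 295 CPM in CHLA15. Single mesenchymal genes went both ways. In CHLA20 COL1A1 went from 106 and 97.4 CPM in control to 42.2 and 43.1 CPM with palbociclib. There DCN went from 96.1 and 111 CPM to 116 and 117 CPM. The part of these lists in the palbociclib results was not tested. Genes of blood and endothelial cells summed to at most 13.4 and 7.20 CPM in any library. In bulk RNA, fewer cells in S phase and less RNA per cell cannot be told apart.

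Before treatment, the levels per kilobase of transcript differed widely among the 50 genes. In BE2C at 0 h, PCNA (the sliding clamp) had the highest level at 257 ± 2.71 CPM per kilobase (SD, n = 2), followed by MCM7 at 198 ± 6.32, MCM3 at 166 ± 2.81, MCM4 at 129 ± 3.25 and RRM2 at 120.4 ± 2.23. The 6 helicase subunits, which act as 1 ring, were not at equal RNA levels: MCM2 stood at 110.1, MCM5 at 58.96 and MCM6 at 36.9 CPM per kilobase. The ORC subunits ORC1 and ORC4 stood at 11.03 and 7.13. In the controls of the 4 other lines MCM7 ranged from 79.3 in NB1691 to 308 CPM per kilobase in CHLA20, and ORC1 from 3.94 in NB1691 to 22.98 in NB1643. All 50 genes together took 0.624% to 0.644% of the counts in NB1643 controls but 0.270% to 0.272% in NB1691 controls.

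The palbociclib experiment asks how gene expression differs when CDK4 and CDK6 are inhibited, and in every line more than 25 of the 50 genes were lower with the drug. In NB1643 at 3 µM, 46 of the 50 genes were lower and 1 was higher, with a median log2 fold change of -1.35 against 0.00 over all genes. By comparison, 19.7% of the 22133 genes tested were lower there and 20.3% higher. In NB1691 at the same dose, 47 were lower and 0 higher (median -0.99), against a background of 15.5% and 17.4%. CHLA20 at 300 nM had 43 lower and 1 higher genes (median -0.49, background 15.9% and 13.7%), and CHLA15 at 300 nM had 27 and 3 (median -0.20, background 15.6% and 14.2%). In all, 27 of the 50 genes were lower in all 4 lines, where 3.28% of all genes tested were, and 16 more in 3 lines. Only ORC3, ORC4 and ORC5 were lower in none. ORC4 was the higher gene of NB1643 and CHLA20; its call in CHLA20 was lost without the treated library 2 or the control library 1. The SE of these fold changes was 0.05 to 0.12. The doses differed between the CHLA and the NB lines, so their values stand side by side without a comparison.

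**Figure D1:**
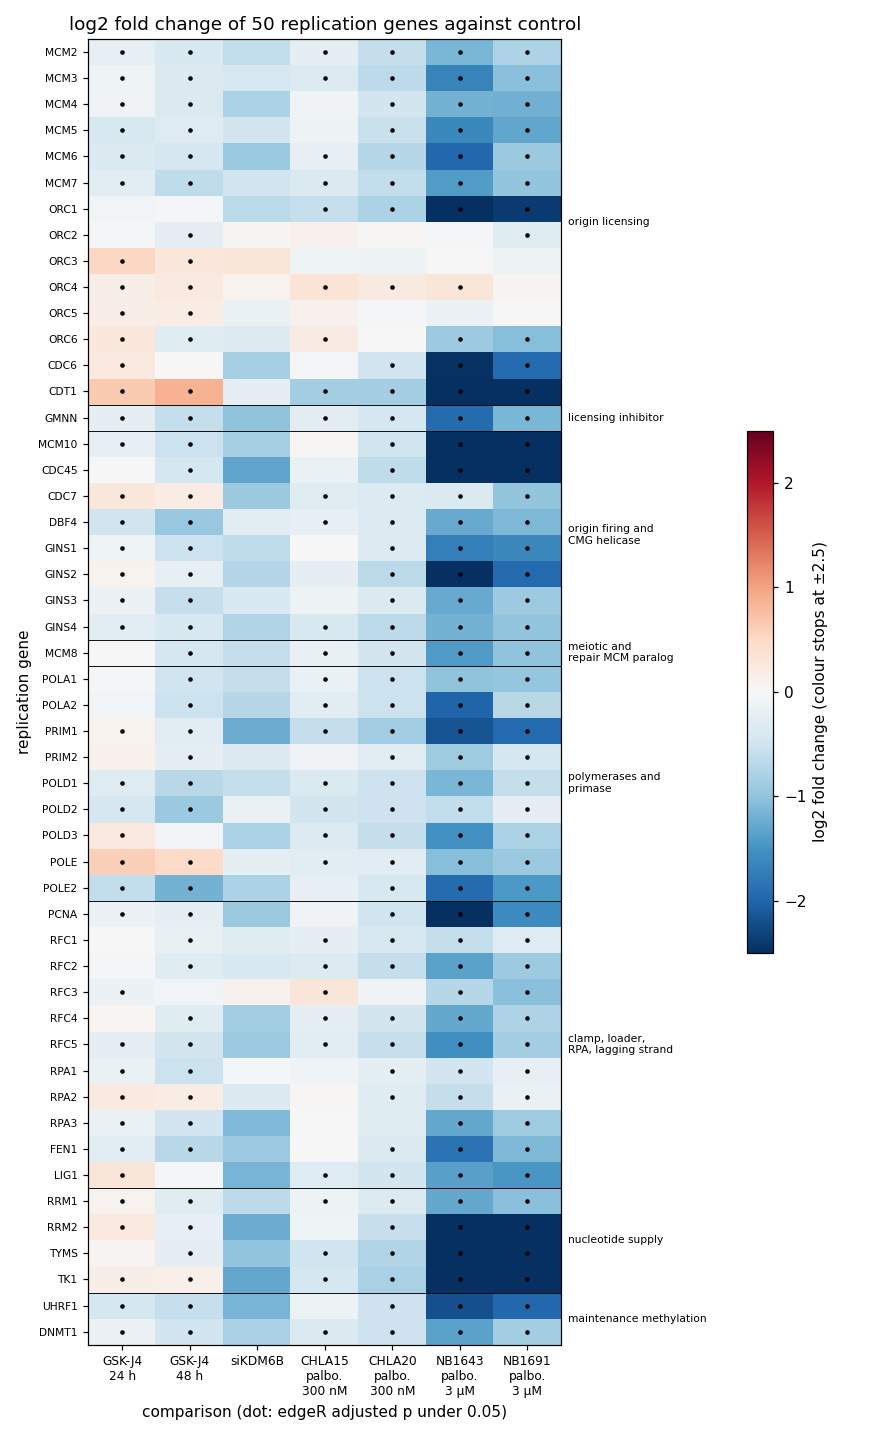
Log2 fold change of the 50 genes (rows, ordered by role) in 7 comparisons (columns), coloured from blue (lower) to red (higher) with the scale ending at -2.5 and 2.5; a dot marks an adjusted p under 0.05 in edgeR's quasi-likelihood test. The NB1643 and NB1691 columns are blue for 46 and 47 genes called lower, the GSK-J4 columns hold both colours, and the siKDM6B column is mostly blue with no dots.

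Among the licensing genes, all 6 MCM subunits fell in NB1643, NB1691 and CHLA20, and MCM2, MCM3, MCM6 and MCM7 also fell in CHLA15. MCM2, a subunit of the ring, was at 152 and 137 CPM in control and 67.05 and 63.7 CPM with palbociclib in NB1643, a log2 fold change of -1.15 ± 0.06, adjusted p = 5.25e-11. In NB1691 its levels were 90.2 and 94.2 CPM in control and 56.02 and 52.6 CPM with palbociclib (-0.76). CHLA20 had 236 and 263 CPM in control and 162 and 167 CPM with palbociclib (-0.61), and CHLA15 had 206 and 211 CPM in control and 179.8 and 174 CPM with palbociclib (-0.23). Both treated libraries lay below both controls in all 4 lines. MCM6 was the subunit with the largest difference between lines given the same dose. It was at 262 and 261 CPM in control and 66.2 and 67.4 CPM with palbociclib in NB1643 (-1.97) and 97.4 and 99.2 CPM in control and 50.4 and 53.6 CPM with palbociclib in NB1691 (-0.92). In CHLA20 it was at 309 and 339 CPM in control and 199 and 196 CPM with palbociclib (-0.71), and in CHLA15 at 231 and 239.8 CPM in control and 206 and 204 CPM with palbociclib (-0.20). The treated libraries were the lower pair each time. The other subunits had log2 fold changes in NB1643, NB1691, CHLA20 and CHLA15 of -1.67, -1.05, -0.66 and -0.34 for MCM3. MCM4 had -1.18, -1.20, -0.46 and, without passing the test in CHLA15, -0.09. MCM5 had -1.62, -1.30, -0.56 and -0.12, again without a call in CHLA15. MCM7 had -1.39, -0.98, -0.62 and -0.37, lower in all 4.

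The loaders of the ring, CDT1 and CDC6, had lower fold changes than any ring subunit in both NB lines. CDT1, which brings the helicase to the origin, was at 171 and 156 CPM in control and 19.5 and 17.9 CPM with palbociclib in NB1643 (-3.12 ± 0.08, adjusted p = 3.52e-16). It was at 15.7 and 16.4 CPM in control and 2.85 and 2.91 CPM with palbociclib in NB1691 (-2.48). In CHLA20 CDT1 stood at 65.2 and 69.9 CPM in control and 34.8 and 40.3 CPM with palbociclib (-0.85) and in CHLA15 at 72.7 and 68.1 CPM in control and 40.1 and 38.5 CPM with palbociclib (-0.84). It was the licensing gene with the lowest fold change in both CHLA lines and in NB1691, and its groups did not overlap in any line. CDC6, the ATPase that closes the loading complex, was at 61.1 and 63.5 CPM in control and 11.8 and 10.6 CPM with palbociclib in NB1643 (-2.47) and 56.6 and 60.03 CPM in control and 15.4 and 14.7 CPM with palbociclib in NB1691 (-1.95). It was at 126 and 153 CPM in control and 99.2 and 99.8 CPM with palbociclib in CHLA20 (-0.49), but at 103 and 109 CPM in control and 105 and 104 CPM with palbociclib in CHLA15, where it was not called (-0.02, 95% interval -0.17 to 0.13). GMNN, the inhibitor of CDT1, fell in all 4 lines as well, being at 49.6 and 57.96 CPM in control and 14.96 and 13.2 CPM with palbociclib in NB1643 (-1.93) and 39.7 and 41.3 CPM in control and 18.8 and 17.9 CPM with palbociclib in NB1691 (-1.14). In CHLA20 it was at 51.5 and 64.2 CPM in control and 42.2 and 42.7 CPM with palbociclib (-0.45), and in CHLA15 at 47.1 and 49.7 CPM in control and 39.97 and 40.9 CPM with palbociclib (-0.26).

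The origin recognition complex did not move as a unit. ORC1, the subunit known to vary through the cell cycle, was at 72.6 and 70.8 CPM in control and 6.93 and 7.56 CPM with palbociclib in NB1643, the lowest fold change of the licensing genes there (-3.31 ± 0.08, adjusted p = 2.82e-16). It was at 12.1 and 12.46 CPM in control and 2.60 and 2.01 CPM with palbociclib in NB1691 (-2.40). The CHLA lines had 41.7 and 46.6 CPM in control and 24.9 and 26.1 CPM with palbociclib in CHLA20 (-0.79) and 41.2 and 42.5 CPM in control and 27.8 and 28.3 CPM with palbociclib in CHLA15 (-0.58), again without overlap. In contrast ORC2 was at 42.02 and 41.9 CPM in control and 39.3 and 41.7 CPM with palbociclib in NB1643 (-0.05, 95% interval -0.17 to 0.07). Its levels were 37.9 and 41.6 CPM in control and 39.9 and 41.3 CPM with palbociclib in CHLA20 and 40.8 and 40.3 CPM in control and 42.4 and 44.7 CPM with palbociclib in CHLA15, with neither line called, while NB1691 had 35.2 and 35.1 CPM in control and 28.6 and 28.6 CPM with palbociclib and a call as lower (-0.30). ORC4 was higher in CHLA15, CHLA20 and NB1643, at 0.34, 0.23 and 0.30, and was not called in NB1691 (0.07). ORC3 and ORC5 were called in no line, with log2 fold changes between -0.15 and 0.10. ORC6 was lower in the NB lines (-0.91 and -1.06), higher in CHLA15 (0.20) and not called in CHLA20.

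**Figure D2:**
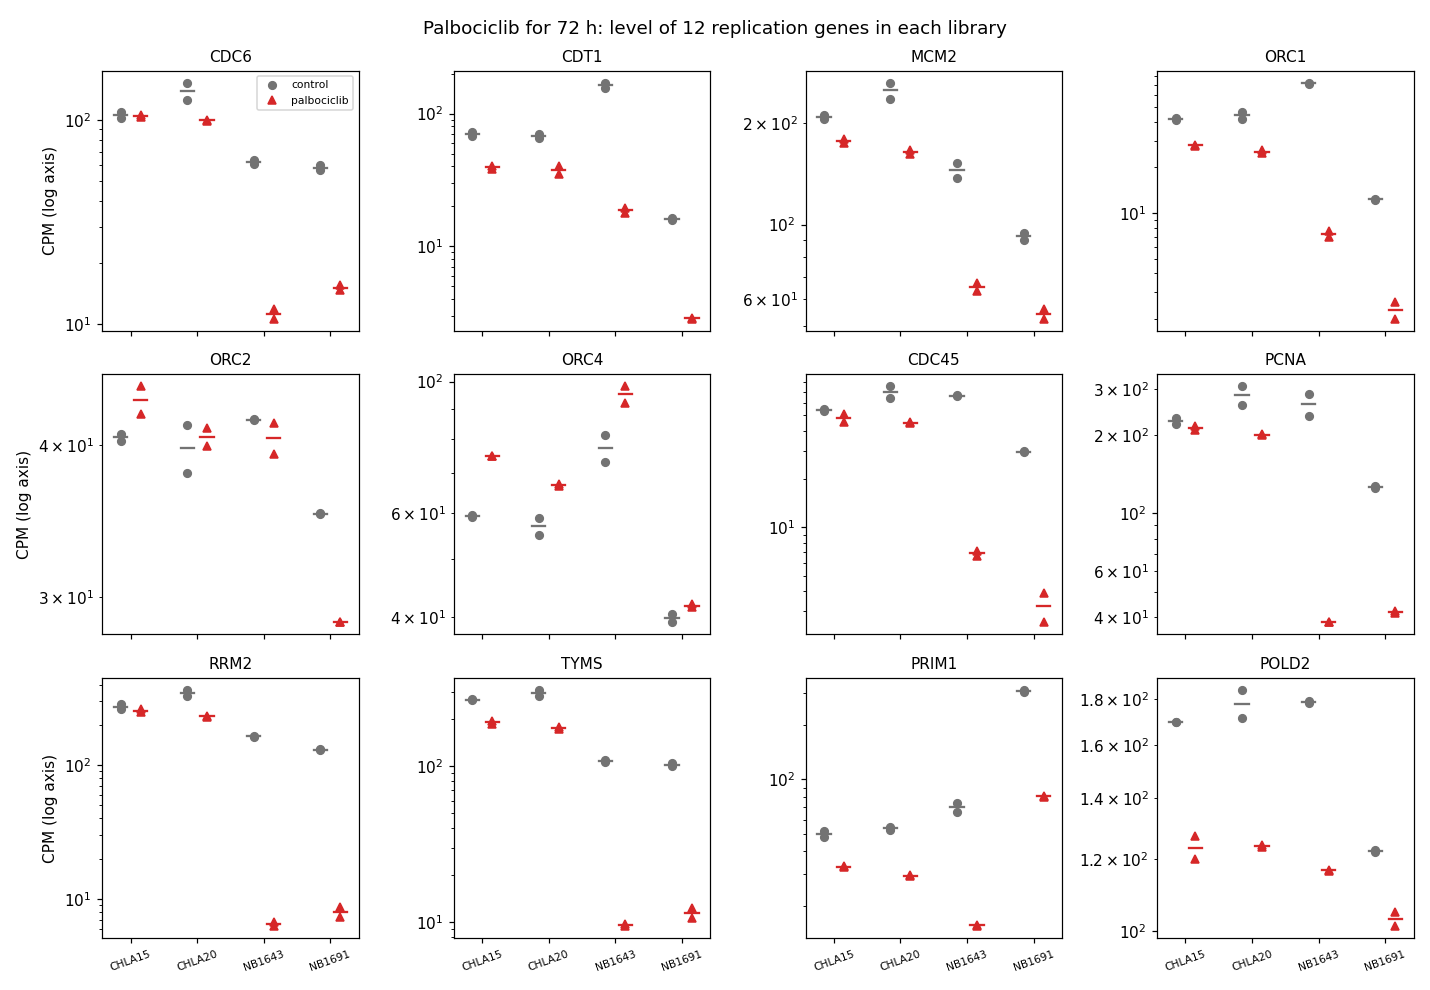
CPM of 12 of the 50 genes in each library of the 4 lines without and with palbociclib (300 nM in CHLA15 and CHLA20, 3 µM in NB1643 and NB1691), on log axes whose range differs between panels; points are the 2 libraries of a group and short bars are group means. RRM2 falls from 162 and 166 CPM to 6.26 and 6.72 CPM in NB1643, while in the ORC2 panel, whose axis spans a narrow range, the treated points of CHLA20 lie between its controls.

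All 8 genes of origin firing were lower in NB1643, NB1691 and CHLA20, and 3 (GINS4, CDC7 and DBF4) were lower in CHLA15. CDC45, a subunit of the active helicase, had the lowest fold change of this group in both NB lines, at 65.6 and 67.1 CPM in control and 7.16 and 6.62 CPM with palbociclib in NB1643 (-3.26 ± 0.11, adjusted p = 2.28e-14) and 29.3 and 29.8 CPM in control and 3.91 and 2.55 CPM with palbociclib in NB1691 (-3.17). It was at 64.1 and 75.8 CPM in control and 44.9 and 45.1 CPM with palbociclib in CHLA20 (-0.64), and at 53.3 and 54.8 CPM in control and 50.8 and 45.2 CPM with palbociclib in CHLA15, where it was not called (-0.17). GINS2, a part of the 4-protein GINS complex, led the group in CHLA20, with 80.9 and 100.4 CPM in control and 57.4 and 56.5 CPM with palbociclib (-0.67). In NB1643 it was at 68.1 and 76.1 CPM in control and 9.50 and 9.35 CPM with palbociclib (-2.93), in NB1691 at 22.2 and 24.6 CPM in control and 6.96 and 5.02 CPM with palbociclib (-1.95) and in CHLA15 at 64.9 and 70.8 CPM in control and 59.7 and 55.2 CPM with palbociclib without a call (-0.24). The kinase genes were lower in every line, with DBF4 at -1.25, -1.13, -0.35 and -0.20 in NB1643, NB1691, CHLA20 and CHLA15. CDC7 had the smallest decrease of the group in NB1643 (-0.36) and CHLA20 (-0.34), and GINS3 in NB1691 (-0.92). GINS4 led in CHLA15 (-0.39), where MCM10, a firing factor, had the highest value (0.02, not called). MCM8, whose product acts in repair and meiosis and not in licensing, was lower in all 4 lines, from -1.42 in NB1643 to -0.19 in CHLA15; 33.3% of its exon bases are shared with another gene on the same strand, so its reads are uncertain.

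The polymerase genes were lower throughout, all 9 in NB1643, NB1691 and CHLA20 and 7 in CHLA15. POLE2, the second subunit of polymerase ε, was at 17.7 and 19.4 CPM in control and 4.46 and 5.41 CPM with palbociclib in NB1643 (-1.92 ± 0.10, adjusted p = 3.26e-11) and 9.68 and 9.73 CPM in control and 3.996 and 3.15 CPM with palbociclib in NB1691 (-1.43). Its levels were 14.1 and 14.998 CPM in control and 10.9 and 11.01 CPM with palbociclib in CHLA20 (-0.41) and 13.5 and 13.03 CPM in control and 10.8 and 12.1 CPM with palbociclib in CHLA15, where it did not pass (-0.21). The lowest fold change of the group belonged in each line to PRIM1, the catalytic subunit of primase, at -2.17, -1.94, -0.87 and -0.60 in NB1643, NB1691, CHLA20 and CHLA15. PRIM1 started from uneven levels, with 305 and 312 CPM in NB1691 controls against 48.2 to 74.4 CPM in the controls of the other lines, and 15.1% of its exon bases are shared with other genes on the same strand. POLD2, a small subunit of polymerase δ, moved least in both NB lines, at 178 and 179 CPM in control and 117 and 116 CPM with palbociclib in NB1643 (-0.62) and 122 and 123 CPM in control and 105 and 101 CPM with palbociclib in NB1691 (-0.25). It was at 171 and 184 CPM in control and 124 and 124 CPM with palbociclib in CHLA20 (-0.52) and 169.6 and 169.9 CPM in control and 127 and 119.9 CPM with palbociclib in CHLA15 (-0.46), and was called lower in all 4. PRIM2, the other primase subunit, had the smallest change in the CHLA lines (-0.26, lower, and -0.10, not called). It shares 18.3% of its exon bases with other genes on the same strand.

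Of the 11 clamp, loader, RPA and lagging-strand genes, all were lower in NB1643 and NB1691, 9 in CHLA20 and 5 in CHLA15. PCNA had the lowest fold change of this group in both NB lines, at 237 and 287 CPM in control and 38.2 and 38.2 CPM with palbociclib in NB1643 (-2.78 ± 0.08, adjusted p = 4.67e-15) and 128 and 126 CPM in control and 42.5 and 41.5 CPM with palbociclib in NB1691 (-1.59). In CHLA20 it was at 261 and 307 CPM in control and 201 and 200.2 CPM with palbociclib (-0.50), and in CHLA15 at 219.7 and 232 CPM in control and 217 and 209 CPM with palbociclib without a call (-0.08). RFC1, the large subunit of the clamp loader, was lower in all 4 lines, with 116 and 111 CPM in control and 73.1 and 78.02 CPM with palbociclib in NB1643 (-0.59) and 97.4 and 94.7 CPM in control and 75.4 and 78.4 CPM with palbociclib in NB1691 (-0.32). It was at 58.1 and 54.9 CPM in control and 44.8 and 41.3 CPM with palbociclib in CHLA20 (-0.39) and 53.7 and 51.3 CPM in control and 46.04 and 43.6 CPM with palbociclib in CHLA15 (-0.23). RFC2 led the group in the CHLA lines (-0.60 and -0.34). RFC3, another loader subunit, was the exception in CHLA15, where it was higher (0.31), and it was not called in CHLA20 (-0.09). Of the RPA genes, RPA1 was the highest of the group in NB1643 (-0.48) and RPA2 in NB1691 (-0.17), both called lower. RPA3 was at -1.29 and -0.88 in these lines, also called lower.

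The nucleotide supply genes had the lowest medians of any role in the NB lines, -3.70 in NB1643 and -3.25 in NB1691. RRM2, the small subunit of ribonucleotide reductase, was at 162 and 166 CPM in control and 6.26 and 6.72 CPM with palbociclib in NB1643 (-4.66 ± 0.08, adjusted p = 6.28e-18). It was at 129 and 131 CPM in control and 8.71 and 7.31 CPM with palbociclib in NB1691 (-4.01) and 327 and 365 CPM in control and 229 and 232 CPM with palbociclib in CHLA20 (-0.58). These groups lay far apart in the NB lines, whereas CHLA15 had 262 and 284 CPM in control and 248.9 and 261 CPM with palbociclib and no call (-0.10). The large subunit gene RRM1 moved less, with 219 and 219 CPM in control and 89.6 and 91.5 CPM with palbociclib in NB1643 (-1.27) and 82.96 and 88.02 CPM in control and 42.5 and 40.4 CPM with palbociclib in NB1691 (-1.04). It was at 231 and 231 CPM in control and 184 and 180.4 CPM with palbociclib in CHLA20 (-0.34) and 211 and 209 CPM in control and 189 and 194 CPM with palbociclib in CHLA15 (-0.13), and was lower in all 4 lines. TYMS, thymidylate synthase, was at 106 and 111 CPM in control and 9.42 and 9.67 CPM with palbociclib in NB1643 (-3.50). It was at 99.8 and 105 CPM in control and 12.4 and 10.7 CPM with palbociclib in NB1691 (-3.15), 284 and 309.5 CPM in control and 175 and 179 CPM with palbociclib in CHLA20 (-0.74) and 266 and 271 CPM in control and 194 and 188 CPM with palbociclib in CHLA15 (-0.49). Since 47.9% of its exon bases are shared with genes on the opposite strand and the strand setting of the counting is not given in the sources used here, the TYMS reads may include those of ENOSF1 or TYMSOS. The same limit holds for MCM2 and GINS4, with 23.6% and 23.4% of their exon bases shared with genes on the opposite strand. TK1, thymidine kinase of the salvage pathway, was at 111 and 106 CPM in control and 7.70 and 6.91 CPM with palbociclib in NB1643 (-3.89). Its levels were 69.4 and 70.8 CPM in control and 7.63 and 6.06 CPM with palbociclib in NB1691 (-3.35), 120.1 and 150.0 CPM in control and 74.96 and 78.7 CPM with palbociclib in CHLA20 (-0.81) and 101 and 112 CPM in control and 79.9 and 76.99 CPM with palbociclib in CHLA15 (-0.44). Both TYMS and TK1 were called lower in all 4 lines without overlap.

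UHRF1 and DNMT1, which copy DNA methylation to the new strand, were lower in NB1643, NB1691 and CHLA20, and DNMT1 also in CHLA15. UHRF1 was at 60.01 and 59.6 CPM in control and 13.5 and 12.46 CPM with palbociclib in NB1643 (-2.20) and 68.02 and 70.7 CPM in control and 18.9 and 16.6 CPM with palbociclib in NB1691 (-1.96). It was at 165 and 196 CPM in control and 125 and 127 CPM with palbociclib in CHLA20 (-0.52) and 170.4 and 172 CPM in control and 156 and 156 CPM with palbociclib in CHLA15 (-0.13, not called). DNMT1 had log2 fold changes of -1.34, -0.85, -0.51 and -0.36 in the same order. The share of all counts that fell on the 50 genes went from 0.624% to 0.644% in the controls to 0.233% to 0.235% with palbociclib in NB1643, and from 0.733% to 0.774% to 0.532% to 0.534% in CHLA20.

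Lines given the same dose were compared by a test of the difference between their fold changes. For CHLA20 against CHLA15, all 50 differences were below 0 and 13 passed the test as lower, with 0 higher (median -0.26), against a background of 0.867% lower and 1.15% higher among all genes tested. The 13 included 5 of the 6 ring subunits, MCM2 (-0.37), MCM3 (-0.31), MCM4 (-0.37), MCM5 (-0.44) and MCM6 (-0.51, adjusted p = 0.00177). CDC6 (-0.46), MCM10 (-0.52), POLA1 of polymerase α (-0.38) and RRM2 (-0.48) were among them, and CDT1, the most affected licensing gene of both lines, had a difference of -0.00 (95% interval -0.22 to 0.21). This count was sensitive to single libraries, at 2 to 27 when each of the 8 was left out. It was 2 without either CHLA20 treated library, 27 and 8 without the CHLA20 control libraries 1 and 2, 4 without either CHLA15 control and 6 without either CHLA15 treated library. DESeq2 gave 27.

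For NB1691 against NB1643, 31 of the 50 genes passed the test with a difference above 0, that is a smaller decrease in NB1691, and 3 with one below 0 (median 0.38; 9 of the 50 below 0), against a background of 12.0% and 10.0%. The largest differences were POLA2 of polymerase α (1.30 ± 0.08, adjusted p = 3.37e-09), PCNA (1.18), MCM6 (1.05) and GINS2 (0.98). For POLA2, 16.8% of the exon bases are shared with other genes on the same strand, so its reads are uncertain. All 4 nucleotide supply genes differed in this direction, from 0.23 for RRM1 to 0.65 for RRM2, and so did MCM2 (0.38), MCM3 (0.63), MCM5 (0.32), MCM7 (0.41), CDC6 (0.52), CDT1 (0.64), ORC1 (0.91), POLE2 (0.49) and TYMS (0.36). The 3 genes that passed with a larger decrease in NB1691 were CDC7 (-0.62), RFC3 (-0.34) and ORC2 (-0.25), whereas MCM4 (-0.02), CDC45 (0.09) and POLA1 (0.04) were not called. NB1691 is the line with the profile rich in COL1A1 and LUM given above, whose part in this difference was not tested.

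In BE2C cells GSK-J4 gave smaller changes that depended on the gene and on time. At 24 h, 23 of the 50 genes were lower and 16 higher (median -0.06, all genes 0.01), against a background of 28.0% lower and 27.3% higher, so that the share of higher genes was near the background. At 48 h, 37 were lower and 8 higher (median -0.32, all genes 0.05), against 34.4% and 37.1% of the 17734 genes tested. Between 24 h and 48 h, 40 genes fell and 3 rose (median -0.31, background 28.0% and 25.9%), of which 1 rose with DESeq2, without the filter on low counts and without either 48 h library. Libraries of a time were very alike (SE of the fold changes 0.03 to 0.06), so small changes passed the test. With a log2 fold change above 0.5 in size also required, 14 genes were lower and 1 was higher at 48 h. The share over all genes under this setting is not given here. Scaling by upper quartiles moved the all-gene median at 48 h to 0.16 and that of the 50 genes to -0.21, so that values below are best read against the all-gene median. A list of 6 fibroblast or mesenchymal genes went from 103 to 105 CPM at 0 h to 24.5 to 25.4 CPM at 48 h and the neuroblastoma identity genes from 3102 to 3166 to 2112 to 2117 CPM, and their part in the result was not tested.

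**Figure D3:**
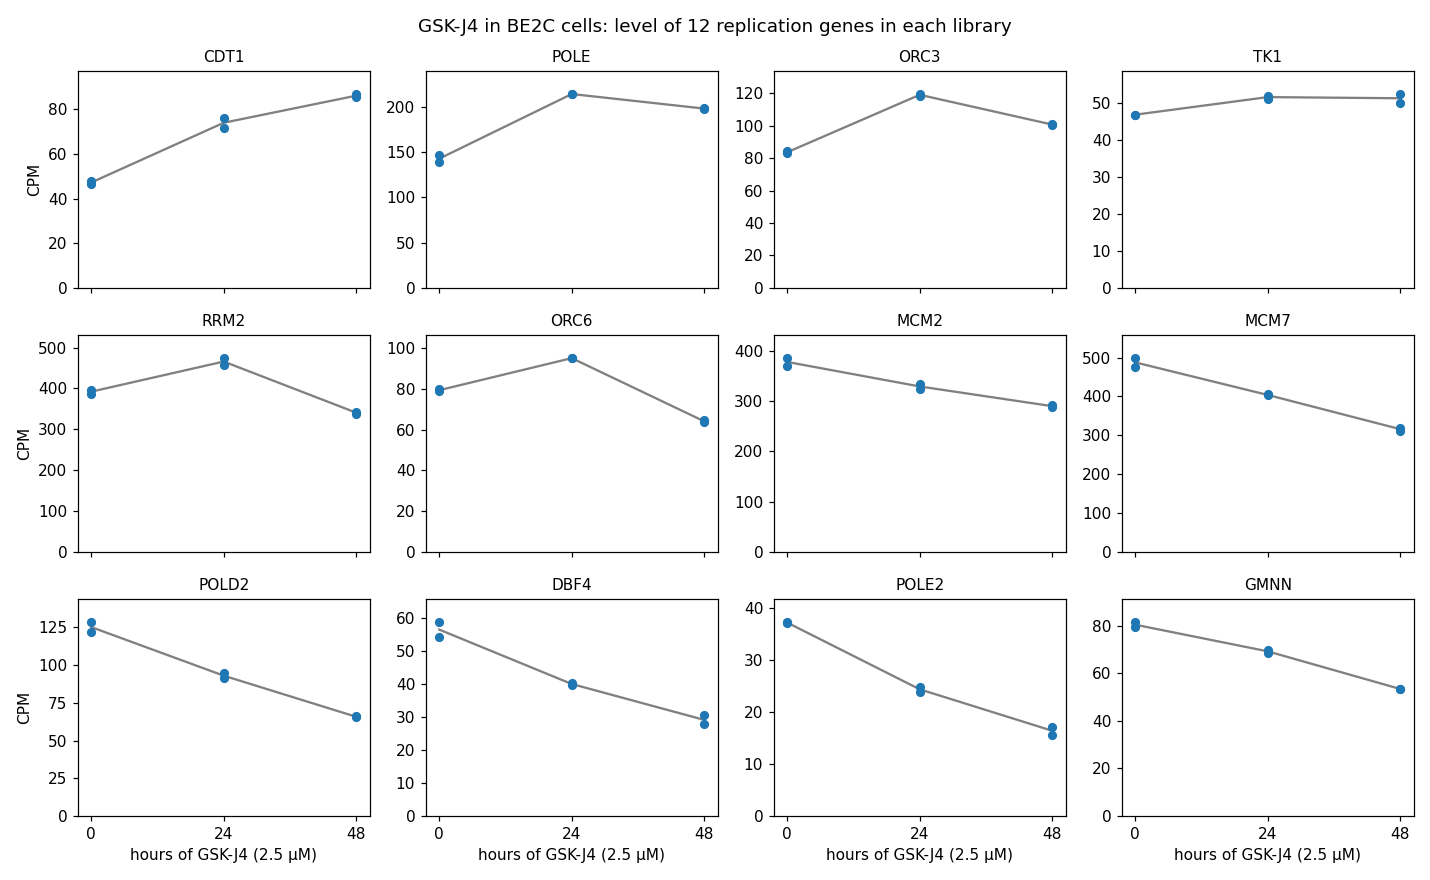
CPM of 12 of the 50 genes in each BE2C library at 0 h, 24 h and 48 h of GSK-J4 (2.5 µM), with lines through the means of the 2 libraries and axes that start at 0. CDT1 goes up at both times, RRM2 and ORC6 go up at 24 h and down at 48 h, and POLE2, POLD2 and DBF4 go down at each time.

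The ring subunits MCM2 to MCM7 were lower at both times, by small amounts. MCM2 was at 370.4 and 386 CPM at 0 h, 325 and 334 CPM at 24 h and 288 and 292 CPM at 48 h, with log2 fold changes of -0.20 and -0.38 ± 0.03, adjusted p = 2.89e-16. MCM6 was at 138 and 139 CPM at 0 h, 111 and 106 CPM at 24 h and 103 and 105 CPM at 48 h (-0.35 and -0.41). All treated libraries of both genes lay below both 0 h libraries. At 48 h MCM7 had the lowest value of the licensing genes (-0.63), with MCM3 at -0.36, MCM4 at -0.35 and MCM5 at -0.32. MCM5 was the lowest at 24 h (-0.41) and was called higher at 48 h than at 24 h (0.09). As given above, not all 3 genes with such a rise kept the call with DESeq2 or without the filter on low counts.

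The loading factors were higher or near their start. CDT1 was at 47.7 and 46.7 CPM at 0 h, 71.7 and 76.3 CPM at 24 h and 85.4 and 86.9 CPM at 48 h, the highest fold change of all 50 genes at both times (0.65 and 0.87 ± 0.04, adjusted p = 6.20e-24). CDC6 was at 162 and 168 CPM at 0 h, 198 and 194 CPM at 24 h and 159.5 and 171 CPM at 48 h, higher at 24 h (0.24) and not called at 48 h (-0.00), where upper-quartile scaling gave a call as higher. GMNN, the inhibitor of CDT1, was at 81.6 and 79.5 CPM at 0 h, 69.9 and 68.7 CPM at 24 h and 53.4 and 53.5 CPM at 48 h and fell at both times (-0.22 and -0.59). ORC1 was at 35.3 and 33.5 CPM at 0 h, 32.6 and 33.1 CPM at 24 h and 31.6 and 34.9 CPM at 48 h and was called at neither time (-0.07 and -0.05). ORC2 was at 86.1 and 84.99 CPM at 0 h, 84.03 and 81.9 CPM at 24 h and 74.7 and 71.03 CPM at 48 h, not called at 24 h (-0.04) and lower at 48 h (-0.23). ORC3, ORC4 and ORC5 were higher at both times, at 0.27, 0.25 and 0.19 at 48 h, and ORC6 was higher at 24 h (0.26) and lower at 48 h (-0.31).

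Of the 8 firing genes, 5 were lower at 24 h and 7 at 48 h. DBF4, the activating partner of CDC7, had the lowest fold changes (-0.50 and -0.95), whereas its kinase CDC7 was higher at both times (0.28 and 0.19). CDC45 was at 88.5 and 85.1 CPM at 0 h, 86.9 and 86.4 CPM at 24 h and 65.9 and 61.4 CPM at 48 h, with no call at 24 h (-0.00) and a decrease at 48 h (-0.45). GINS2 was at 89.8 and 93.9 CPM at 0 h, 97.6 and 98.7 CPM at 24 h and 77.8 and 81.4 CPM at 48 h, higher at 24 h (0.10) and lower at 48 h (-0.21).

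The polymerase genes had the lowest and the second highest fold changes among the 50 at 48 h, and all 9 were lower at 48 h than at 24 h. POLE2 was at 37.1 and 37.3 CPM at 0 h, 23.8 and 24.9 CPM at 24 h and 15.6 and 17.2 CPM at 48 h, with no overlap between any of the times (-0.61 and -1.19 ± 0.06, adjusted p = 2.06e-23). POLE, the catalytic subunit of the same polymerase ε, was higher at both times (0.59 and 0.47). POLD2 was at 122 and 128 CPM at 0 h, 94.5 and 91.5 CPM at 24 h and 65.3 and 66.1 CPM at 48 h (-0.43 and -0.93), falling at each step.

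Of the 11 clamp, loader, RPA and lagging-strand genes, 6 were lower and 2 higher at 24 h, and 8 and 1 at 48 h (median -0.30). PCNA was at 326 and 330.4 CPM at 0 h, 299 and 295 CPM at 24 h and 277 and 275 CPM at 48 h (-0.14 and -0.25, lower at both times). RFC1 was at 174 and 175 CPM at 0 h, 176 and 176 CPM at 24 h and 152 and 157 CPM at 48 h, not called at 24 h (0.01) and lower at 48 h (-0.18). FEN1, the flap nuclease of the lagging strand, had the lowest values of this group (-0.27 and -0.69). At the other end stood LIG1, the ligase of the same strand, at 24 h (0.29, higher) and RPA2 at 48 h (0.18, higher). RFC3 was called higher at 48 h than at 24 h (0.08), with the limit given for the rise of MCM5.

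The nucleotide supply genes were higher or uncalled at 24 h and mostly lower at 48 h. RRM2 was at 387 and 397 CPM at 0 h, 474 and 458 CPM at 24 h and 343 and 338 CPM at 48 h, rising at 24 h (0.25) and falling below its start at 48 h (-0.20), a difference between the times of -0.45 ± 0.03, adjusted p = 1.38e-18. RRM1 was at 239.8 and 249.4 CPM at 0 h, 257 and 265 CPM at 24 h and 198 and 196 CPM at 48 h and followed the same course (0.09 and -0.31), being the lowest of the group at 48 h. TYMS was at 51.2 and 51.4 CPM at 0 h, 53.9 and 53.7 CPM at 24 h and 43.5 and 44.5 CPM at 48 h, not called at 24 h (0.07) and lower at 48 h (-0.22). TK1 was at 46.8 and 46.7 CPM at 0 h, 51.9 and 51.1 CPM at 24 h and 50.1 and 52.3 CPM at 48 h and higher at both times (0.14 and 0.13). UHRF1 was at 139 and 139.7 CPM at 0 h, 104 and 103 CPM at 24 h and 94.3 and 91.5 CPM at 48 h and lower at both times (-0.43 and -0.58), as was DNMT1 (-0.14 and -0.47). In all, 22 genes were lower at both times, 8 were higher at both (ORC3, ORC4, ORC5, CDT1, CDC7, POLE, RPA2 and TK1), and 5 were higher at 24 h and lower at 48 h (ORC6, GINS2, PRIM1, RRM1 and RRM2). The shares of all genes with these courses were not counted, so these numbers are a description. At 24 h and 48 h taken singly, 28.0% and 34.4% of all genes tested were lower and 27.3% and 37.1% higher.

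In the siRNA experiment no gene passed the test, neither among the 50 nor among the 17472 tested (smallest adjusted p 0.279 with edgeR). The 3 libraries labelled siKDM6B, each from another siRNA, differed widely among themselves, with a common biological coefficient of variation of 0.35 against 0.0219 with GSK-J4 and 0.0523 with palbociclib. At an unadjusted p under 0.05 there were 1615 genes of all (9.24%), 788 of them lower (4.51%), and 18 of the 50 genes, all with values below 0 (adjusted p 0.520 to 0.960). DESeq2 called 1 of the 50, RPA3, and limma-voom 0, while 24 were lower with each deposited file taken as a sample and 9 in a fit that shared its spread with the GSK-J4 libraries. Files of 1 library differed far less than files of different siRNAs, and the GSK-J4 libraries varied far less than the siRNA libraries. Both of these settings therefore understate the spread between siRNAs. The median log2 fold change of the 50 genes was -0.67, against 0.04 over all genes, with 46 values below 0, and it was -0.49 without N33. Every siKDM6B library lay below both siCtrl libraries for 38 of the 50 genes, where 16.8% of all genes tested did, and for 0 of the 50 did every library lie above. The share of all genes that lay above was not counted. Against the siCtrl mean, N1 gave a median log2 ratio over the 50 genes of -0.45, N2 one of -0.49 and N33 one of -1.21, while the siCtrl libraries differed from each other by -0.05. Fibroblast or mesenchymal genes summed to 157 to 158 CPM in siCtrl and 219 to 238 CPM in these libraries, but they did not move together. PDGFRB was at 67.8 and 75.3 CPM in siCtrl and 141 (N1), 153 (N2) and 13.3 CPM (N33). LUM was at 34.02 and 29.9 CPM in siCtrl and 49.4 (N1), 24.1 (N2) and 109 CPM (N33). The part of these genes was not tested.

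**Figure D4:**
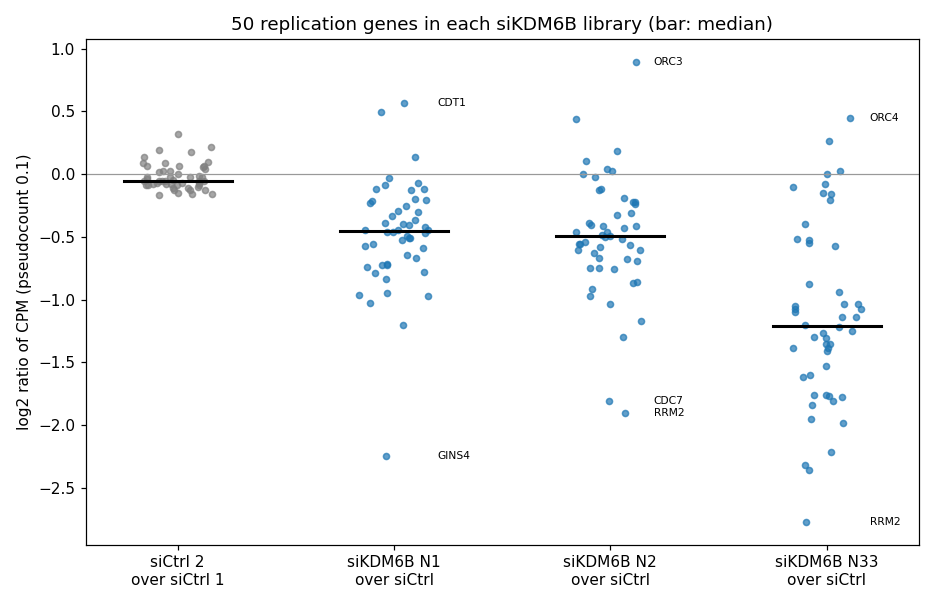
Log2 ratio of CPM to the siCtrl mean for each of the 50 genes (points) in N1, N2 and N33, and the ratio of the siCtrl libraries to each other, with the median of each column as a bar; pseudocount 0.1 CPM. The siCtrl column lies close to 0, and the N33 column has the lowest median at -1.21, with single genes named that depart from the rest in 1 library.

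Of the 14 licensing genes, 8 had every siKDM6B library below siCtrl and none passed the test (median -0.44). MCM2 was at 279 and 275 CPM in siCtrl and 203 (N1), 234 (N2) and 104 CPM (N33). MCM6 was at 125 and 131 CPM in siCtrl and 66.3 (N1), 82.8 (N2) and 51.9 CPM (N33), again without overlap. Their log2 fold changes over the group were -0.62 and -0.94 (95% interval -1.54 to -0.33), and those of MCM3, MCM4, MCM5 and MCM7 were -0.41, -0.78, -0.47 and -0.50. CDC6 was at 147 and 142 CPM in siCtrl and 83.5 (N1), 105 (N2) and 56.2 CPM (N33), again with all 3 below. CDT1 was at 38.4 and 44.6 CPM in siCtrl and 61.5 (N1), 31.7 (N2) and 11.8 CPM (N33), so that N1 lay above and N2 and N33 below the controls (-0.25 over the group). GMNN was at 82.6 and 75.8 CPM in siCtrl and 47.4 (N1), 47.02 (N2) and 23.1 CPM (N33). ORC1 was at 27.8 and 26.3 CPM in siCtrl and 22.1 (N1), 16.03 (N2) and 12.8 CPM (N33), and both genes had every library below siCtrl. ORC2 was at 103 and 96.6 CPM in siCtrl and 91.7 (N1), 99.7 (N2) and 119.7 CPM (N33), overlapping the controls. ORC3 had the highest value of the licensing genes (0.31), which N2 alone gave, at 179 CPM against 97.1 and 95.7 CPM in siCtrl.

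Single siRNAs departed for single genes. GINS4 was at 36.1 and 34.7 CPM in siCtrl and 7.38 (N1), 28.6 (N2) and 26.8 CPM (N33), lowest with N1. CDC7 was at 85.7 and 80.7 CPM in siCtrl and 78.4 (N1), 23.7 (N2) and 28.7 CPM (N33), low with N2 and N33. CDC45 had the lowest value of the firing genes (-1.32), at 70.8 and 72.03 CPM in siCtrl and 30.9 (N1), 39.4 (N2) and 15.3 CPM (N33). GINS2 was at 71.97 and 68.4 CPM in siCtrl and 39.4 (N1), 60.01 (N2) and 27.4 CPM (N33), with all 3 below siCtrl, and DBF4 was the highest of its group (-0.26). Among the polymerase genes the values ran from -1.24 for PRIM1 to -0.17 for POLD2, which was at 109 and 105 CPM in siCtrl and 91.2 (N1), 145 (N2) and 49.97 CPM (N33). POLE2 was at 36.6 and 32.9 CPM in siCtrl and 25.3 (N1), 20.7 (N2) and 14.5 CPM (N33). All 3 libraries were below siCtrl for POLE2, while those of POLD2 were not.

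PCNA was at 308 and 285 CPM in siCtrl and 218 (N1), 151 (N2) and 96.7 CPM (N33), with all 3 below siCtrl. RFC1 was at 156 and 149 CPM in siCtrl and 111 (N1), 103 (N2) and 156 CPM (N33) and overlapped the controls. In this group the values ran from -1.16 for LIG1 to 0.11 for RFC3. RRM2 was at 371 and 372 CPM in siCtrl and 321 (N1), 98.997 (N2) and 54.3 CPM (N33), lower with N2 and N33 than with N1 by a wide margin. TYMS was at 36.9 and 45.99 CPM in siCtrl and 26.02 (N1), 26.1 (N2) and 10.4 CPM (N33). TK1 was at 41.8 and 47.8 CPM in siCtrl and 21.9 (N1), 24.6 (N2) and 8.64 CPM (N33), and RRM1 at 194 and 185 CPM in siCtrl and 139.5 (N1), 135 (N2) and 86.2 CPM (N33). All 4 nucleotide supply genes lay below siCtrl in every library, with values over the group from -1.29 for TK1 to -0.66 for RRM1. UHRF1 was at 127 and 139.8 CPM in siCtrl and 80.6 (N1), 70.6 (N2) and 26.7 CPM (N33), also below in each.

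The values of the 3 experiments were set side by side. Across the 50 genes the fold changes at 48 h of GSK-J4 had Pearson correlations of -0.06 to 0.10 with those of the 4 palbociclib lines, and the siKDM6B values had 0.32 with CHLA15, 0.61 with CHLA20, 0.68 with NB1643 and 0.64 with NB1691. Within BE2C, the siKDM6B values had Pearson correlations of 0.14 with 24 h and 0.23 with 48 h of GSK-J4. Correlations of the single siRNA libraries with the lines were 0.11 to 0.33 for N1, 0.18 to 0.53 for N2 and 0.45 to 0.77 for N33. These are descriptions over 50 genes, which are not independent, and the values of a line or of the siRNA experiment share their control libraries. Of the 27 genes lower in all 4 palbociclib lines, 20 were also lower at 48 h of GSK-J4, beside 37 of all 50 and 34.4% of all genes tested. Another 4 were higher (CDT1, CDC7, POLE and TK1), beside 8 of all 50 and 37.1% of all genes tested. CDT1 stood at 0.87 with GSK-J4 in BE2C and -3.12 with palbociclib in NB1643. Of the 20, 17 also lay below siCtrl in every siKDM6B library, beside 38 of all 50 and 16.8% of all genes tested. Among the 17 were MCM2, MCM3, MCM6, MCM7, GMNN, GINS4, PRIM1, RRM1, TYMS and DNMT1.

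**Figure D5:**
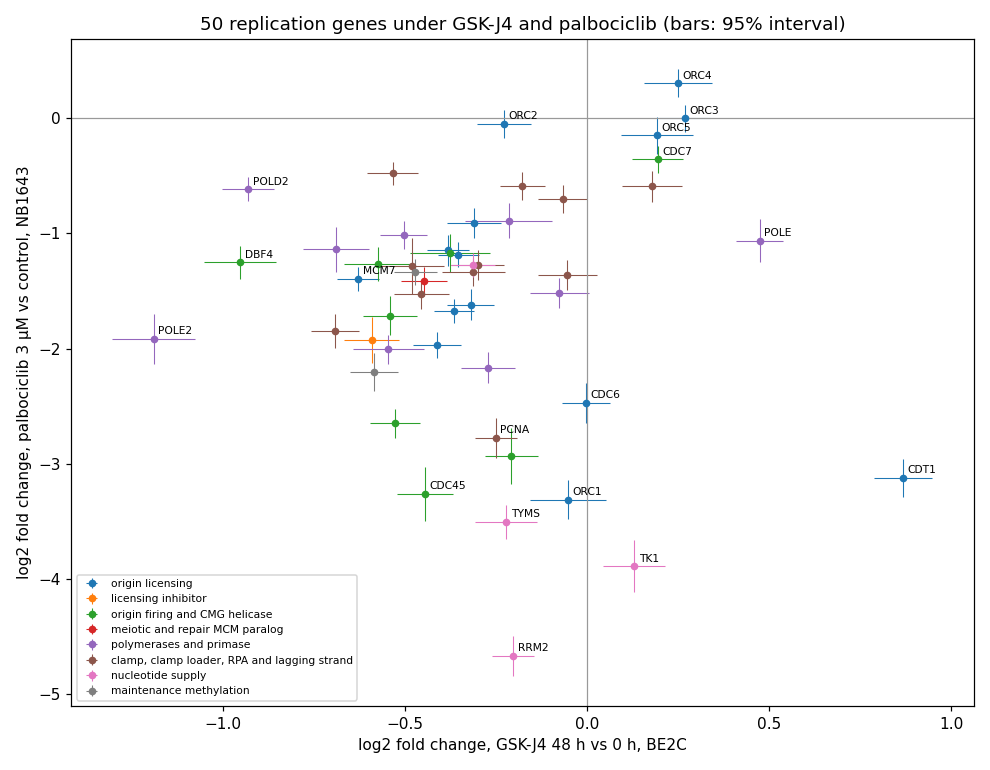
Log2 fold change of each of the 50 genes (points, coloured by role) at 48 h of GSK-J4 in BE2C (x axis) and with palbociclib in NB1643 (y axis), with lines at 0 and bars for the 95% interval. TK1, TYMS and RRM2 lie low on the y axis and near 0 on the x axis, CDT1 lies at 0.87 and -3.12, and POLE2 at -1.19 and -1.92.

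The roles had different medians in the 3 experiments. The 14 licensing genes had medians of -1.29 in NB1643 and -0.27 at 48 h of GSK-J4, with 10 and 8 called lower. The 9 polymerase genes had -1.14 and -0.50, with 9 and 7 lower. The nucleotide supply genes had -3.70 and -0.21, with 4 and 3 lower. In the libraries labelled siKDM6B the same 3 groups had medians of -0.44, -0.60 and -1.11, with 8 of 14, 7 of 9 and 4 of 4 genes below siCtrl in every library. Over all genes tested, 19.7% were lower in NB1643, 34.4% were lower at 48 h of GSK-J4 and 16.8% lay below siCtrl in every siKDM6B library. The all-gene medians were 0.00, 0.05 and 0.04 in the same order.

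Of 36 further genes of firing and fork protection, polymerase accessories and nucleotide supply, 30 were lower in NB1643 (median -0.80), 26 in NB1691 (-0.54), 21 in CHLA20 and 15 in CHLA15, while 3 were higher in CHLA15 and 0 in the other lines. Over all genes tested, 19.7%, 15.5%, 15.9% and 15.6% were lower in these lines. At 24 h and 48 h of GSK-J4, 16 and 24 were lower and 7 and 3 higher, against 28.0% and 34.4% lower and 27.3% and 37.1% higher of all genes tested. In every siKDM6B library 19 of the 36 lay below siCtrl, against 16.8% of all genes. CLSPN, a fork protection factor, was the lowest in the NB lines, at -3.48 in NB1643 and -3.06 in NB1691. With GSK-J4 at 48 h, NME1, a nucleoside diphosphate kinase, was the lowest (-1.50), and IMPDH2, of guanine nucleotide synthesis, the highest (0.52).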

How the data were processed

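Total RNA was sequenced by the authors as paired ends, aligned to GRCh37 with STAR 2.5.3a per the labels, and counted per gene with htseq-count; the deposited counts are whole numbers by gene symbol without normalization. The methods name a mouse annotation for the counting while the symbols are human, and the labels' extraction protocol mentions xenograft tissue while the sources are cell lines. The 38 files held 27 libraries: counts of the 22 BE2C files were added 2 by 2, giving 11 libraries, and the 2 files of each KDM6B siRNA were taken as 1 library. Libraries held 36186567 to 93011010 counts.

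Counts were analysed with edgeR 4.0.16 in R 4.3.3 (TMM factors, filterByExpr, quasi-likelihood F test, Benjamini-Hochberg adjustment over all genes tested, threshold 0.05), with the 6 GSK-J4, the 5 siRNA and the 16 palbociclib libraries fitted apart. The study itself used limma-voom, which was run as an alternative (limma 3.58.1), as were DESeq2 1.42.0, other scalings, filters, a fold threshold, other samples in the fit, each file as a sample, a replicate block and leaving out each library. The edgeR fit of each experiment was tested on simulated data for a single contrast. The other contrasts and the alternative fits were not tested in this way. The lists of members, roles, pathway genes and markers were chosen with earlier results of these data known. Named with values were, in each role of 4 or more genes, the highest and lowest fold change, with 12 genes in every comparison and per-library levels for 18. A result that this rule would name among the pathway genes is not reported here. Promoters were read with Python 3.11.15 from RefSeq windows (GRCh38.p14), and levels per kilobase used the length of the canonical transcript; figures were drawn with matplotlib 3.10.9.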

Additional observations from a re-analysis of the deposited data

Results flagged for a closer look

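Differences between lines given the same dose of palbociclib passed the test of the difference itself for several genes. Between CHLA20 and CHLA15 these were MCM2 (-0.37), MCM3 (-0.31), MCM4 (-0.37), MCM5 (-0.44), MCM6 (-0.51), CDC6 (-0.46), MCM10 (-0.52), POLA1 (-0.38) and RRM2 (-0.48), each log2 difference below 0 standing for a larger decrease in CHLA20.

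Between NB1691 and NB1643 a difference above 0 stands for a smaller decrease in NB1691. It was 0.38 for MCM2, 0.63 for MCM3, 0.32 for MCM5, 1.05 for MCM6 and 0.41 for MCM7 in the ring, 0.52 for CDC6 and 0.64 for CDT1 among its loaders, and 0.98 for GINS2. Among the polymerases it was 1.30 for POLA2 and 0.49 for POLE2, for the clamp PCNA it was 1.18, and for nucleotide supply it was 0.23 for RRM1, 0.65 for RRM2 and 0.36 for TYMS. ORC2 (-0.25), CDC7 (-0.62) and RFC3 (-0.34) had the opposite sign.

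For the 5 genes called higher at 24 h and lower at 48 h of GSK-J4, the difference between these times was -0.57 for ORC6, -0.30 for GINS2, -0.36 for PRIM1, -0.41 for RRM1 and -0.45 for RRM2. That choice of genes fixes the sign of the difference, so these values are a description. All groups held fewer than 4 libraries, so no single library could be tested as standing apart within its group.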

How the results depend on the processing

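Of 7400 fold changes of the 50 genes under alternatives, 6774 kept their direction and their side of the threshold, 94 uncalled values changed sign, 403 lost a call, 128 gained one and 1 called value had the opposite sign: CDC6 at 48 h of GSK-J4, at 0.11 with upper quartiles. With a log2 fold change above 0.5 in size required, lower and higher genes numbered 1 and 3 at 24 h of GSK-J4, 14 and 1 at 48 h, 3 and 0 between these times, 3 and 0 in CHLA15, 25 and 0 in CHLA20, 2 lower for CHLA20 against CHLA15, and 1 lower and 15 higher for NB1691 against NB1643, with 0 higher in NB1643. The matching shares over all genes are not given here. Genes that rose between 24 h and 48 h numbered 1 with DESeq2, 1 without the filter and 1 to 3 with a library left out. In the libraries labelled siKDM6B, 1 gene was lower with DESeq2, 24 with each file as a sample and 9 with the siRNA and GSK-J4 libraries in 1 fit. Both the file fit and the joint fit understate the spread between siRNAs. Leaving out 1 library gave 0 to 1 higher genes in CHLA20, and 2 to 27 lower genes for CHLA20 against CHLA15, where DESeq2 gave 27. Lower genes for NB1691 against NB1643 numbered 5 with library totals, with at least 10 counts in every library and with only those lines in the fit. Causes were not tested, beyond the fewer samples or the stricter threshold that an alternative itself sets.

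Samples with the same replicate number deviated together little (r from 0.0087 to 0.037 with GSK-J4 and from -0.046 to 0.118 with palbociclib). Counting noise in single libraries also lowers such an r, so a pairing by these numbers was neither established nor excluded. A replicate block gave 23 lower and 16 higher genes at 24 h of GSK-J4, 37 and 8 at 48 h, and 40 and 4 between the times. In the same fits 25 and 3 were called in CHLA15, 44 and 1 in CHLA20, 46 and 1 in NB1643, 47 and 0 in NB1691, 12 and 0 for CHLA20 against CHLA15, and 4 and 31 for NB1691 against NB1643. Most groups held 2 libraries and each KDM6B siRNA 1; the shares of library number, depth and spread between siRNAs in the precision were not compared.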
